A study of Homo sapiens with 48 samples.

Results

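Interferon-stimulated genes (ISGs) were examined in SW480 cells, a human APC-mutant colorectal cancer line, as short hairpin RNAs (shRNAs) were switched on. The 9 ISGs ISG15, IFI6, IFI27, IFIT1, IFIT2, IFIT3, IFITM2, IFITM3 and MX1 were chosen by name, with earlier results of these data known. The question was whether shRNA expression is accompanied by an interferon response. Of these 9 genes, 7 were in the total RNA table (11947 genes) and 6 in the table of ribosome-protected fragments, or RPFs (11145 genes). IFIT3 was in the total RNA table alone, and IFIT1 and IFIT2 were left out because neither table used here lists them.

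Cells carried a lentiviral, doxycycline (DOX)-inducible shRNA against no human transcript (shCTRL), against EIF2B1 (shEIF2B1) or against EIF2B4 (shEIF2B4). EIF2B1 and EIF2B4 encode the α and δ subunits of eIF2B, the factor that reloads the translation initiator eIF2 with GTP. Each line received DMSO (-DOX) or 1 µg/ml DOX (+DOX) for 5 days, which gave 6 groups of 4 replicates grown in separate weeks. Each of the 24 lysates yielded an RPF library, the footprints left by ribosomes, and a total cytoplasmic RNA library. All lines are pools of selected cells, each with a single shRNA, and every +DOX sample received both DOX and a hairpin, so that an effect of the drug and an effect of shRNA expression cannot be told apart. Likewise, values are averages over a culture, in which a few strongly responding cells and a weak response of all cells cannot be told apart.

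Interferons are secreted when a cell detects foreign nucleic acid, for instance double-stranded RNA, which a hairpin transcript can resemble. Type I and type III interferons signal through JAK1 and TYK2 to a complex that holds STAT2 and IRF9 and binds the interferon-stimulated response element in the promoters of ISGs. In intestinal epithelium this programme limits viral and bacterial infection. IFIT, MX1 and the IFITM proteins are antiviral effectors, ISG15 is a ubiquitin-like modifier, and IFI6 and IFI27 are small membrane proteins of one family.

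The response element is visible in the promoters of the members themselves, which are shown for the genes whose values follow. The motif searched was GAAA, any 2 bases and GAAA again, on both strands and with overlapping matches counted, in windows from 250 bases before to 50 bases after each start site in RefSeq's GRCh38.p14 annotation. Of the 9 members, 7 had such a window, and each of these 7 held the motif in at least 1 window. Counted by window, 10 of 11 windows of members held it (90.9%), beside 3.57% of all 35116 promoters. The stretches below lie before the start site, are written 5′ to 3′ along the gene, and carry the motif in capitals on either strand (on the opposite strand it reads TTTC, any 2 bases, TTTC).
ISG15, chr1:1013369-1013414, plus strand: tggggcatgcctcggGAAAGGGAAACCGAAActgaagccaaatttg
IFI6, chr1:27672261-27672363, minus strand: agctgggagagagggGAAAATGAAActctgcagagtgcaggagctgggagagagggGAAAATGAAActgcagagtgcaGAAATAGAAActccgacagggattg
IFI27, chr14:94110613-94110665, plus strand: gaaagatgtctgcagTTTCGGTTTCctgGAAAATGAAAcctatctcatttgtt
IFIT3, chr10:89327826-89327899, plus strand: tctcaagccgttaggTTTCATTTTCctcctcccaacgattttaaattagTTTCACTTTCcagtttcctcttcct
IFITM3, chr11:320871-320927, minus strand: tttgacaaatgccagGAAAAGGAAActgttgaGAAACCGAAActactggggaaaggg
ISG15, IFI27, IFIT3 and IFITM3 have 2 matches each in the window shown, and IFI6 has 3. In MX1, 2 of 3 annotated windows held a match, 1 of them just after the start site. A match describes the letters and is no evidence of binding in these cells.

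The deposited values are log2 values that the authors regularized across libraries, separately for RPFs and total RNA, without read counts, so the depth behind a value is unknown. Medians of single libraries lay between 6.84 and 7.12 for RPFs, where all shEIF2B4 libraries were below those of the other lines, and between 7.85 and 7.92 for total RNA. Of 7 epithelial markers, KRT8, KRT18, KRT19, EPCAM, CDX2 and CDH1 were present in both tables, and VIL1 was in neither. Of 7 markers of leukocytes, fibroblasts and endothelium, CD14 alone was listed, in RPFs only, at group means of 4.19 to 4.84. CD14 rose by 0.21 over the 3 lines (limma adjusted p = 0.0242) and was -0.43 from shCTRL in uninduced shEIF2B4 (limma adjusted p = 0.0213). Over the 3 lines 2 of 6 epithelial markers rose and 4 fell in RPFs, beside 24.5% of all genes higher and 27.9% lower. In total RNA 2 rose and 3 fell, beside 27.7% and 27.9%. CDH1 went from 4.70 ± 0.34 to 6.53 ± 0.27 in RPFs of shEIF2B4 with DOX, and from 4.26 ± 0.22 to 4.89 ± 0.45 in shCTRL (SD, n = 4 each). The part of these markers in the results was not tested. EIF2B1 fell in the line that targets it, from 8.35 ± 0.081 to 7.64 ± 0.23 in RPFs, and EIF2B4 fell in its line from 7.77 ± 0.21 to 7.13 ± 0.24 (SD, n = 4 each). Before induction both already stood below shCTRL, where EIF2B1 went from 8.80 ± 0.095 to 8.61 ± 0.20 with DOX and EIF2B4 from 8.19 ± 0.32 to 8.02 ± 0.22. In the line targeting the other gene, EIF2B4 went from 8.26 ± 0.11 to 7.91 ± 0.20 and EIF2B1 from 8.73 ± 0.11 to 8.57 ± 0.13. The cause of the lower uninduced values was not tested. One RPF library, shEIF2B4 -DOX replicate 1, stood high for ISG15, IFI6, IFI27, IFITM2 and IFITM3. Calls that change when it is left out are given both ways.

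The members differed widely in where they stood in each table. IFITM2 and IFITM3, which restrict the entry of enveloped viruses at the endosomal membrane, ranked above 99.7% and 98.8% of genes by mean RPF value, and above 86.4% and 94.4% by mean total RNA value. ISG15, IFI6 and IFI27 ranked above 79.6%, 76.4% and 67.2% of genes in RPFs, and above 36.8%, 31.3% and 68.5% in total RNA. MX1, a dynamin-like GTPase that blocks viral replication, ranked above only 6.56% of genes in RPFs and 7.25% in total RNA. IFIT3, which with its partners binds viral RNA, ranked above 9.97% of genes in total RNA. These ranks are not corrected for gene length.

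Induction of the non-targeting hairpin shows what DOX and a hairpin without a human target did together. IFITM2 and IFITM3 rose in RPFs and IFITM2 rose in total RNA. ISG15, IFI6, IFI27, MX1 and IFIT3 were not called in either measure. Genes were called at a limma adjusted p under 0.1 over all genes of the table. By this rule 2 of 6 members rose in RPFs, where 5.23% of all genes rose, and 1 of 7 rose in total RNA, where 2.27% of all genes rose.

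The log2 RPF values of IFITM2 in shCTRL -DOX were 13.67, 13.11, 13.69 and 12.81 in replicates 1 to 4. With DOX they were 13.87, 13.77, 14.28 and 13.38. Each +DOX library was higher than the -DOX library of its week, although the ranges of the groups overlapped. The change was 0.51 (standard error 0.12, limma adjusted p = 0.0471). Its total RNA values in the same lysates were 9.85, 9.95, 10.68 and 9.98 without DOX and 9.99, 10.66, 11.22 and 10.18 with DOX. It was higher in each week, and rose by 0.40 on the log2 scale (standard error 0.09, limma adjusted p = 0.073).

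IFITM3 moved like its neighbour. In RPFs it read 12.39, 11.99, 12.71 and 12.01 in shCTRL -DOX and 12.77, 12.68, 13.17 and 12.37 in shCTRL +DOX, higher in 4 of 4 weeks (change 0.47, standard error 0.10, limma adjusted p = 0.0425). Its total RNA change of 0.35 had the same sign in 4 of 4 weeks and an adjusted p of 0.11 in limma. Without replicate 2, 3 or 4 neither was called in RPFs, nor IFITM2 in total RNA, and with 1 of these weeks left out only 3 or 4 of all 11145 genes were called in RPFs. Without the replicate block in the fit, no member was called in shCTRL. For that fit, and for the alternatives in the paragraphs below, calls of all genes are not given. Whether a lost call is particular to the members therefore cannot be read from them.

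IFITM2 and IFITM3 need to be read together. In GENCODE v29 on GRCh38, IFITM2 spans 307631 to 315272 on the plus strand of chromosome 11 and IFITM3 319669 to 327537 on its minus strand, 4396 bases apart. IFITM1 (313506 to 315272, plus strand) lies inside the annotated span of IFITM2. Of the 28-base stretches of the coding sequence, as long as a short footprint, 24.7% in IFITM2, 43.3% in IFITM3 and 64.1% in IFITM1 occur in a transcript of another protein-coding gene, the other IFITM genes. Reads from such stretches can be assigned to the wrong family member, so the 3 genes are uncertain as separate measurements. No other member shared more than 2.09% of its stretches.

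None of the remaining members was called in shCTRL. At an unadjusted limma p under 0.05 there were 3 of 6 members in RPFs, IFITM2, IFITM3 and MX1, beside 2683 of 11145 genes. In total RNA there were 3 of 7, IFITM2, IFITM3 and IFI27, beside 2401 of 11947 genes. IFI27 changed by -0.22 in total RNA (95% CI -0.44 to -0.0024) and by -0.09 in RPFs, and IFI6 by 0.17 and 0.14. ISG15 (chromosome 1, 1001138 to 1014540, plus strand) read 9.40, 8.69, 9.12 and 8.41 in RPFs without DOX and 8.90, 8.79, 8.94 and 8.50 with DOX, lower in weeks 1 and 3 and higher in weeks 2 and 4. Its change was -0.12, with a 95% confidence interval (CI) from -0.36 to 0.11. MX1 (chromosome 21, 41420304 to 41459214, plus strand) read 3.89, 4.25, 3.97 and 3.63 in RPFs without DOX and 4.33, 4.55, 3.93 and 4.00 with DOX, higher in 3 of 4 weeks (change 0.27, 95% CI 0.02 to 0.52, limma adjusted p = 0.183). IFIT3 (chromosome 10, 89327894 to 89340971, plus strand) read 4.81, 4.89, 4.97 and 4.93 in total RNA without DOX and 4.86, 4.87, 4.95 and 5.07 with DOX. The 2 groups overlapped throughout, and the change of 0.03 had a 95% CI from -0.12 to 0.19.

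**Figure D1:**
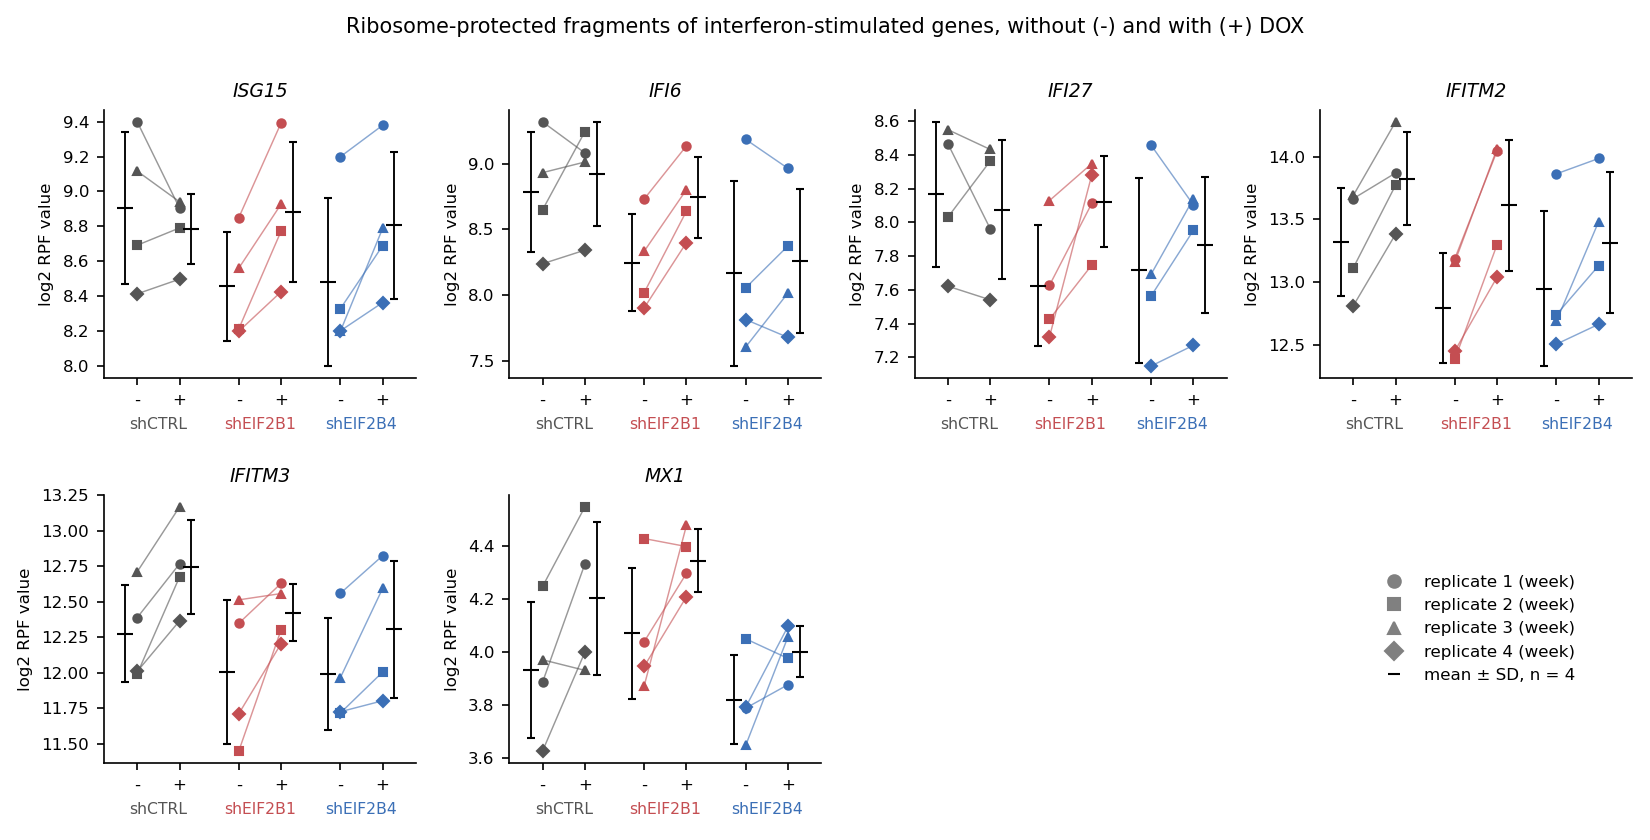
Log2 RPF value (y axis) of the 6 ISGs in the RPF table, in -DOX (-) and +DOX (+) libraries of shCTRL, shEIF2B1 and shEIF2B4. Symbols mark the replicate (week), lines join libraries of one line and week, and black bars give the mean ± SD (n = 4). IFITM2 and IFITM3 rise along all 12 lines, and shEIF2B4 -DOX replicate 1 lies above the other libraries of its group for all genes shown but MX1.

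In the knockdown lines, induction was compared with the uninduced cells of the same line. After shEIF2B1 all 6 members of the RPF table rose, by 0.27 to 0.82, whereas 22.7% of all genes were called higher. In total RNA only IFITM3 and MX1 of 7 members rose, beside 17.5% of all genes. After shEIF2B4, ISG15, IFITM2 and IFITM3 rose in RPFs (3 of 6 members, beside 11.8% of all genes), whereas IFI27 and IFITM2 fell in total RNA (2 of 7 members, beside 16.3% of all genes called lower).

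IFITM2 gave the largest RPF change of the 6 members after shEIF2B1 and was the only one called there without the replicate block. It read 13.19, 12.38, 13.16 and 12.45 without DOX and 14.05, 13.30, 14.07 and 13.04 with DOX. Every week showed a rise of at least 0.59, and the change was 0.82 (standard error 0.10, limma adjusted p = 5.07e-07). Its total RNA in the same lysates read 9.48, 9.76, 10.07 and 9.88 without DOX and 9.81, 10.40, 9.99 and 9.88 with DOX. Total RNA was higher in 2 of 4 weeks, and the change of 0.22 was not called (limma adjusted p = 0.182).

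IFI6 and IFI27 moved in RPFs without a called change in total RNA. IFI6 (chromosome 1, 27666061 to 27672218, minus strand) read 8.73, 8.02, 8.33 and 7.90 in shEIF2B1 -DOX and 9.13, 8.64, 8.80 and 8.40 in shEIF2B1 +DOX, a change of 0.50 (standard error 0.10, limma adjusted p = 0.000258). IFI27 (chromosome 14, 94104836 to 94116698, plus strand) read 7.63, 7.43, 8.13 and 7.32 without DOX and 8.11, 7.75, 8.35 and 8.28 with DOX, a change of 0.50 (standard error 0.12, limma adjusted p = 0.00126). Both rose in 4 of 4 weeks, and both pairs of groups overlapped. In total RNA, IFI27 changed by -0.19 (95% CI -0.39 to 0.01) and IFI6 by 0.17 (95% CI -0.02 to 0.37).

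ISG15, which is conjugated to other proteins by UBA7, UBE2L6 and HERC5, read 8.85, 8.21, 8.56 and 8.20 in RPFs of shEIF2B1 -DOX. With DOX it read 9.39, 8.77, 8.93 and 8.43, higher in 4 of 4 weeks (change 0.42, standard error 0.10, limma adjusted p = 0.00147). MX1 rose as well, its RPF value from 4.07 ± 0.25 to 4.34 ± 0.12 and its total RNA value from 4.45 ± 0.076 to 4.64 ± 0.14 (SD, n = 4 each), with limma adjusted p = 0.079 and 0.0704. Both MX1 calls were lost without replicate 1, 3 or 4, and the total RNA call of IFITM3 without replicate 1. IFIT3 read 4.85, 5.06, 5.23 and 4.88 in total RNA without DOX and 4.77, 4.85, 5.09 and 5.10 with DOX, lower in 3 of 4 weeks and not called (change -0.05, 95% CI -0.23 to 0.13).

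After shEIF2B4 the changes in RPFs had lower values, although no member was called different between the knockdowns. IFITM2 read 13.86, 12.74, 12.69 and 12.51 without DOX and 13.99, 13.13, 13.48 and 12.66 with DOX (change 0.37, standard error 0.13, limma adjusted p = 0.0734). ISG15 read 9.20, 8.33, 8.20 and 8.20 without DOX and 9.38, 8.69, 8.79 and 8.36 with DOX (change 0.32, standard error 0.11, limma adjusted p = 0.0608). Both rose in 4 of 4 weeks, with replicate 1 far above the other weeks on both sides. Without the single library shEIF2B4 -DOX replicate 1, the changes were 0.45 and 0.37, and IFI27 was called as well, at 0.32. Without replicate 2, 3 or 4, none of the 6 members was called in this line. Calls of all genes with these weeks left out are not given, so the loss may not be particular to the members.

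In total RNA of shEIF2B4, 2 of 7 members fell and the other 5 were not called, with changes from -0.18 for IFI6 to 0.08 for MX1. IFITM2 read 9.74, 10.04, 10.26 and 9.93 without DOX and 9.74, 9.72, 9.82 and 9.49 with DOX, lower in 3 of 4 weeks and level in the first (change -0.30, standard error 0.09, limma adjusted p = 0.0288). IFI27 read 8.86, 9.05, 8.87 and 8.75 without DOX and 8.53, 8.79, 8.78 and 8.59 with DOX, lower in 4 of 4 weeks (change -0.21, limma adjusted p = 0.0754). IFI6 was also lower in 4 of 4 weeks, from 6.75 ± 0.10 to 6.57 ± 0.0265 (SD, n = 4 each), but its adjusted p was 0.106 in limma. Without replicate 2 or 4 neither IFITM2 nor IFI27 was called, and without replicate 1 only IFITM2 was.

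**Figure D2:**
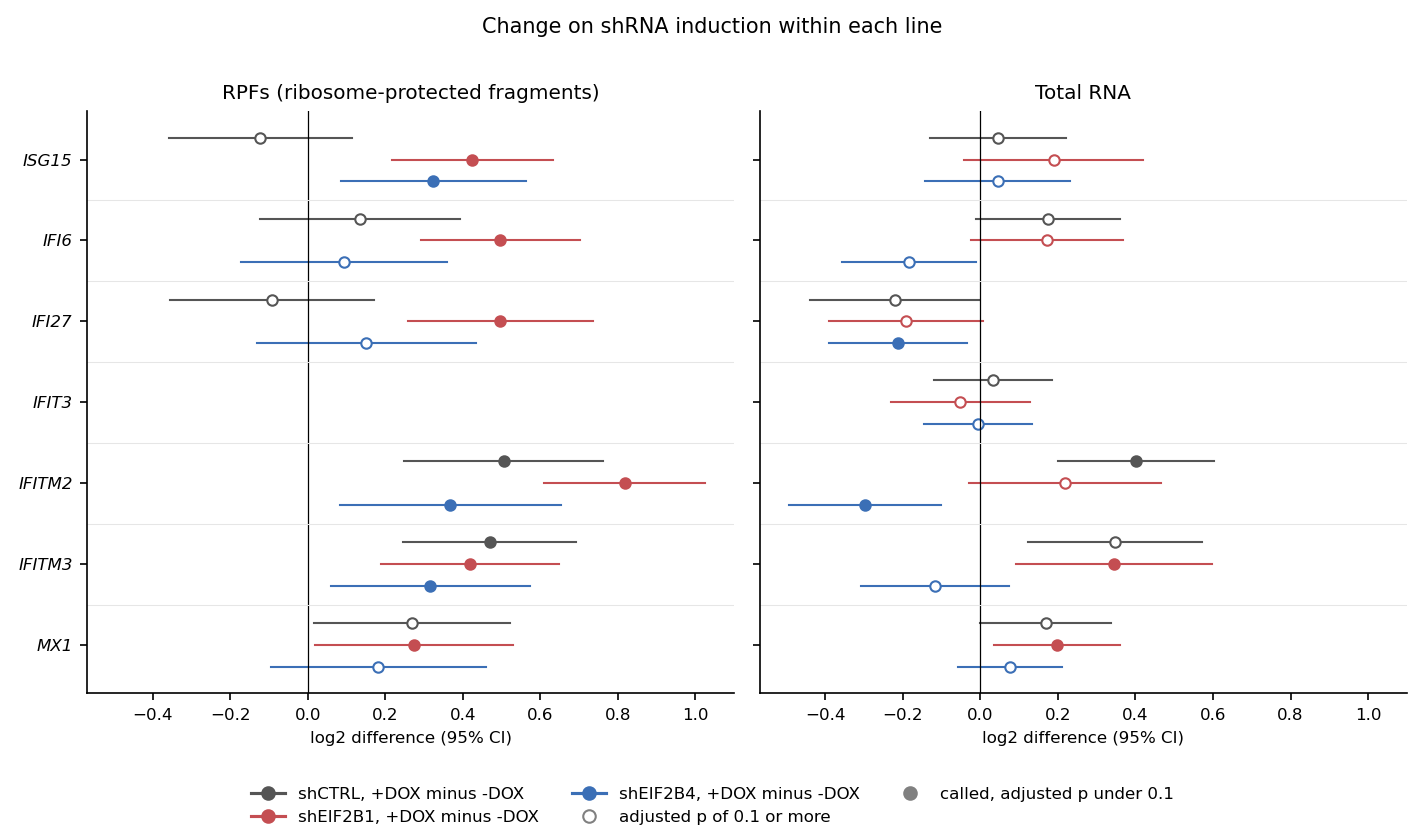
Log2 difference between +DOX and -DOX (x axis) with its 95% CI for each member and line, in RPFs (left) and total RNA (right). Filled points passed a limma adjusted p under 0.1, and IFIT3 is in total RNA only. In RPFs the shEIF2B1 points are filled for all 6 members, from 0.27 to 0.82, and in total RNA the points for IFITM2 lie at 0.40 in shCTRL and at -0.30 in shEIF2B4.

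The change on induction was also averaged over the 3 lines, in a fit of 24 libraries; a mean need not hold in each line. In RPFs 5 of 6 members rose, beside 24.5% of all genes, and IFI27 was not called. IFITM2 and IFITM3 rose in 12 of 12 comparisons of a +DOX with a -DOX library of the same line and week, by a mean of 0.56 (standard error 0.09, limma adjusted p = 2.54e-05) and 0.40 (standard error 0.08, limma adjusted p = 0.00022). ISG15 was higher in 10 of 12 comparisons (mean change 0.21, limma adjusted p = 0.0153), with changes of -0.12 in shCTRL, 0.42 in shEIF2B1 and 0.32 in shEIF2B4. IFI6 was higher in 9 of 12 (0.24, limma adjusted p = 0.0396) and MX1 in 9 of 12 (0.24, limma adjusted p = 0.00658). The calls of IFITM2, IFITM3 and MX1 held without any one replicate, whereas those of ISG15 and IFI6 were lost without replicate 2. Without shEIF2B4 -DOX replicate 1 the means were 0.62 for IFITM2, 0.30 for IFI6 and 0.26 for IFI27, and all 6 members were called.

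In total RNA 2 of 7 members rose and 1 fell, beside 27.7% of all genes higher and 27.9% lower. Calls of members, 3 of 7, were thus no more frequent than calls of all genes, at 55.6%. MX1 rose in 10 of 12 comparisons (mean change 0.15, standard error 0.04, limma adjusted p = 0.00255) and IFITM3 in 8 of 12 (0.19, limma adjusted p = 0.0908). IFI27 fell in 10 of 12 comparisons, with a mean change of -0.21 (standard error 0.05, limma adjusted p = 0.00208). ISG15, IFI6, IFIT3 and IFITM2 lay between -0.01 and 0.11, although IFITM2 changed by 0.40 in shCTRL, 0.22 in shEIF2B1 and -0.30 in shEIF2B4. The call of IFITM3 was lost without replicate 1, 2 or 4.

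**Figure D3:**
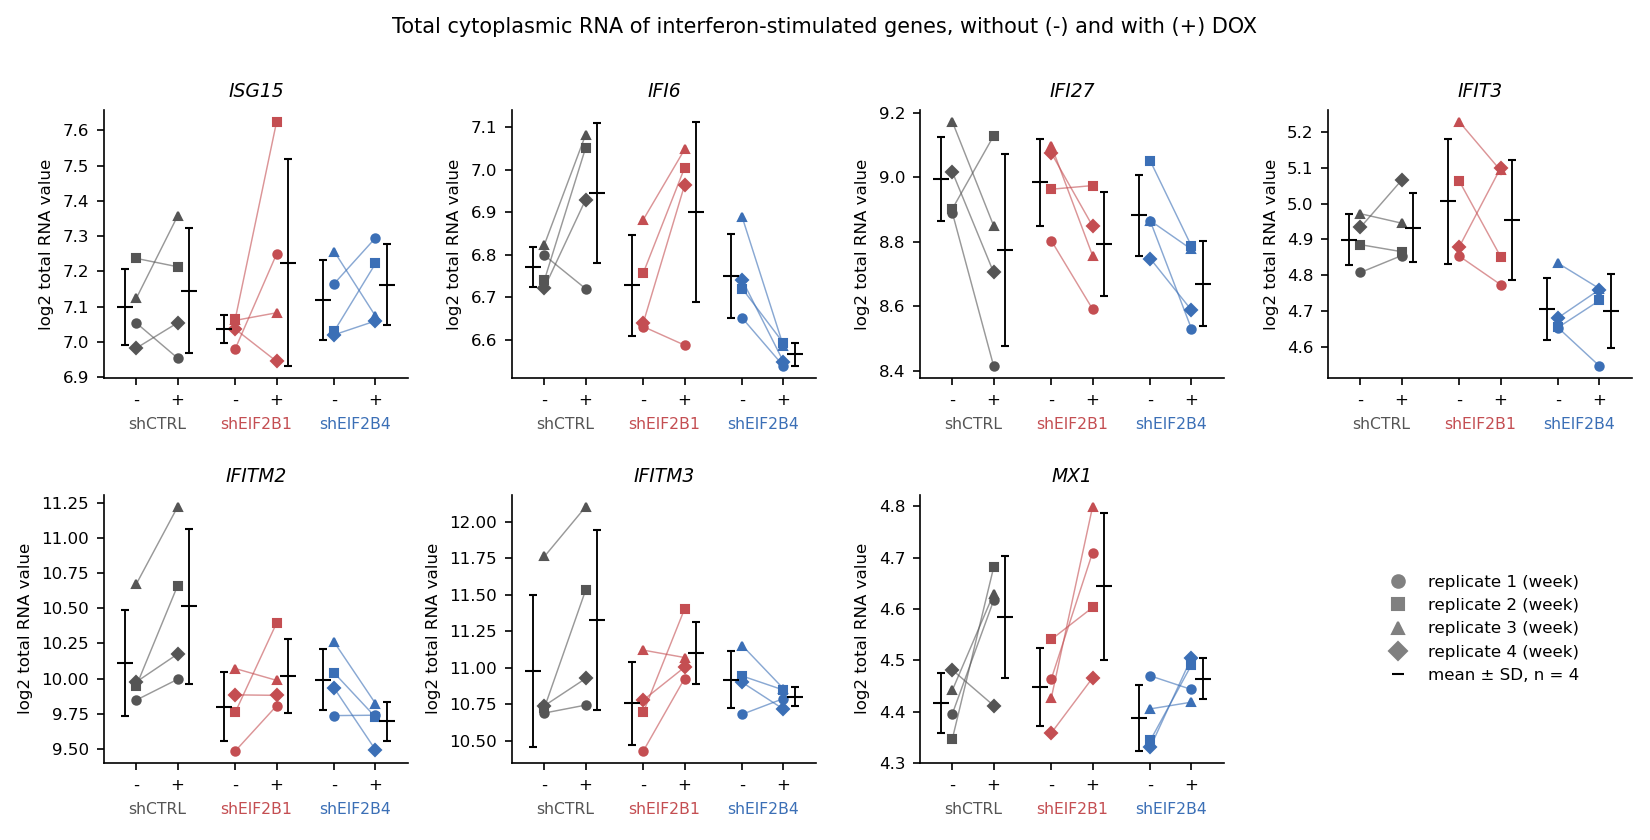
Log2 total RNA value (y axis) of the 7 ISGs in the total RNA table, laid out as for RPFs, with symbols for the week, lines joining libraries of one line and week, and black bars for the mean ± SD (n = 4). IFI27 falls along 10 of 12 lines and MX1 rises along 10 of 12, while IFIT3 stays between 4.55 and 5.23 in all 24 libraries.

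Translation efficiency (TE) was taken as the log2 RPF value minus the log2 total RNA value of the same lysate. In shCTRL 0 of 6 members had a called change, and 0.388% of all 10836 genes did; at an unadjusted p under 0.05 there were also 0 members. After shEIF2B1, IFI6, IFI27 and IFITM2 gained TE (3 of 6 members, beside 8.07% of all genes), by 0.32, 0.69 and 0.60. After shEIF2B4, IFITM2 gained 0.66 and IFITM3 0.43 (2 of 6 members, beside 3.41% of all genes). Both of these calls were lost without replicate 2, 3 or 4, and that of IFI6 in shEIF2B1 without replicate 1, 3 or 4. Without shEIF2B4 -DOX replicate 1 the gains in shEIF2B4 were 0.85 and 0.52, and IFI6 (0.41) and IFI27 (0.49) were called as well. Over the 3 lines, the TE of IFI27 rose by 0.39 (standard error 0.09, limma adjusted p = 0.00324) and that of IFITM2 by 0.46 (standard error 0.10, limma adjusted p = 0.00483), beside 7.86% of all genes called higher. Without that library IFI6 and IFITM3 were also called over the 3 lines, at 0.25 and 0.24. Log2 values were scaled separately in the 2 kinds of library, so that a level of TE has no absolute meaning and only its changes are compared. The values were also regularized separately, so a change may be shrunk by unequal amounts in the 2 kinds, which carries over into changes of TE. The size of this was not tested.

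To separate the knockdowns from induction as such, the shCTRL change was subtracted from that of each line. In RPFs of shEIF2B1, ISG15 and IFI27 remained higher (2 of 6 members, beside 12% of all genes). In RPFs of shEIF2B4 none was called (0 of 6 members, 1 at an unadjusted p under 0.05, beside 2.75% of all genes called in either direction). In total RNA no member was called for shEIF2B1 (0 of 7, also at an unadjusted p under 0.05, beside 3.47% of all genes). IFI6 and IFITM2 were lower for shEIF2B4 (2 of 7, beside 1.62% of all genes). The 2 corrected responses share the 8 shCTRL libraries, so they are not independent of each other.

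The corrected RPF response of ISG15 to shEIF2B1 was 1.04, 0.46, 0.54 and 0.14 in the 4 weeks. Its mean was 0.55 (standard error 0.14, limma adjusted p = 0.0131), with the highest value in week 1, and without replicate 1 it was not called. For IFI27 the weekly values were 0.99, -0.01, 0.34 and 1.04, with a mean of 0.59 (standard error 0.21, limma adjusted p = 0.0606) and no call without replicate 1, 3 or 4. IFITM3 and MX1 differed from the shCTRL response by -0.05 (95% CI -0.39 to 0.29) and 0.00 (95% CI -0.34 to 0.35). For shEIF2B4 the response of ISG15 was 0.45 (95% CI 0.05 to 0.84, limma adjusted p = 0.256). Without shEIF2B4 -DOX replicate 1 it was 0.55 and called (limma adjusted p = 0.0485), as was IFI27 at 0.44 (limma adjusted p = 0.092).

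In total RNA, IFITM2 responded to shEIF2B4 by -0.15, -1.03, -0.99 and -0.64 in the 4 weeks relative to shCTRL. The mean was -0.70 (standard error 0.18, limma adjusted p = 0.0372), made up of a rise of 0.40 in shCTRL and a fall of 0.30 in shEIF2B4. IFI6 gave -0.03, -0.44, -0.56 and -0.40, with a mean of -0.36 (standard error 0.10, limma adjusted p = 0.0663). Both were lower in 4 of 4 weeks. The call of IFITM2 was lost without replicate 2 or 4, and that of IFI6 without replicate 2, 3 or 4.

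TE gave no called corrected response. For shEIF2B1, 0 of 6 members were called (4 at an unadjusted p under 0.05), beside 7.1% of all genes, and for shEIF2B4 0 of 6 (2 at an unadjusted p under 0.05), beside 0.0923% of all genes. The largest values were 0.56 for IFI27 after shEIF2B1 (95% CI 0.16 to 0.96, limma adjusted p = 0.104) and 0.56 for IFITM2 after shEIF2B4 (95% CI 0.08 to 1.04, limma adjusted p = 0.246). Without shEIF2B4 -DOX replicate 1 the latter was 0.75 and called, and so was ISG15 at 0.53.

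The 2 knockdowns were then compared with each other. No member differed in RPFs (0 of 6, 0 at an unadjusted p under 0.05, beside 0.00897% of all genes), in total RNA (0 of 7, 2 at an unadjusted p under 0.05, beside 0.1% of all genes) or in TE (0 of 6, 0 at an unadjusted p under 0.05, beside 0% of all genes). The widest RPF difference was that of IFITM2, whose response to shEIF2B4 was 0.45 below that to shEIF2B1 (log2 difference -0.45, 95% CI -0.91 to 0.01). With shEIF2B4 -DOX replicate 1 left out this difference was -0.27, and that of IFI6 moved from -0.40 to -0.22, with no member called. In total RNA, IFI6 differed by -0.36 (95% CI -0.57 to -0.14) and IFITM2 by -0.51 (95% CI -0.92 to -0.11), with limma adjusted p = 0.219 and 0.318. These intervals leave room for differences of a size seen within the lines.

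The lines already differed before induction, at least in RPFs. ISG15, IFI6, IFI27 and IFITM2 were lower in uninduced shEIF2B1 than in uninduced shCTRL (4 of 6 members, beside 17.1% of all genes called lower), and the same 4 genes were lower in uninduced shEIF2B4 (4 of 6 members, beside 26.8% of all genes called lower). Both comparisons share the 4 shCTRL -DOX libraries. In total RNA no member was called for shEIF2B1 (0 of 7, 1 at an unadjusted p under 0.05, beside 0.0335% of all genes) or for shEIF2B4 (0 of 7, 1 at an unadjusted p under 0.05, beside 1.6% of all genes). The TE of ISG15, IFI6 and IFI27 was lower in both, 3 of 6 members each, beside 8.74% and 24% of all genes called lower. None of these TE calls held without replicate 4, nor without replicate 2 for shEIF2B1 or replicate 3 for shEIF2B4, and that of ISG15 in shEIF2B1 was also lost without replicate 1 and that of IFI27 in shEIF2B4 without replicate 2. With shEIF2B4 -DOX replicate 1 left out the TE of IFITM2 (-0.43) and IFITM3 (-0.32) was called lower in uninduced shEIF2B4 too.

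ISG15 stood at 8.91 ± 0.44 in shCTRL -DOX, 8.46 ± 0.31 in shEIF2B1 -DOX and 8.48 ± 0.48 in shEIF2B4 -DOX (SD, n = 4 each). The differences from shCTRL were -0.45 (standard error 0.12, limma adjusted p = 0.011) and -0.42 (standard error 0.12, limma adjusted p = 0.0175). In +DOX cells it stood at 8.78 ± 0.20, 8.88 ± 0.40 and 8.81 ± 0.42, so that the means of the 3 induced groups lay between 8.78 and 8.88. IFI27 followed the same course in shEIF2B1, at 8.17 ± 0.43 in shCTRL -DOX and 7.63 ± 0.36 in shEIF2B1 -DOX, then 8.07 ± 0.41 and 8.12 ± 0.27 with DOX. The corrected responses of ISG15 and IFI27 to shEIF2B1 thus started from lower uninduced values and ended level with induced shCTRL.

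IFI6 was -0.54 and -0.62 from shCTRL in uninduced shEIF2B1 and shEIF2B4 (limma adjusted p = 0.0201 and 0.0136), and IFITM2 was -0.52 and -0.37 (limma adjusted p = 0.0189 and 0.0881). All genes together had a median difference of 0.00 for shEIF2B1 and -0.13 for shEIF2B4. After each library was centred on its median, IFI27 and IFITM2 were no longer called for shEIF2B4. Without replicate 2 none of the 4 genes was called for shEIF2B1, and without replicate 3 none was called for shEIF2B4, where IFI27 and IFITM2 were also lost without replicate 2 or 4. These losses are not set beside calls of all genes with the same week left out, so they may not be particular to the 4 genes. Without shEIF2B4 -DOX replicate 1 the differences of IFI6 and ISG15 widened to -0.81 and -0.52, and IFITM3 was called too, at -0.39.

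**Figure D4:**
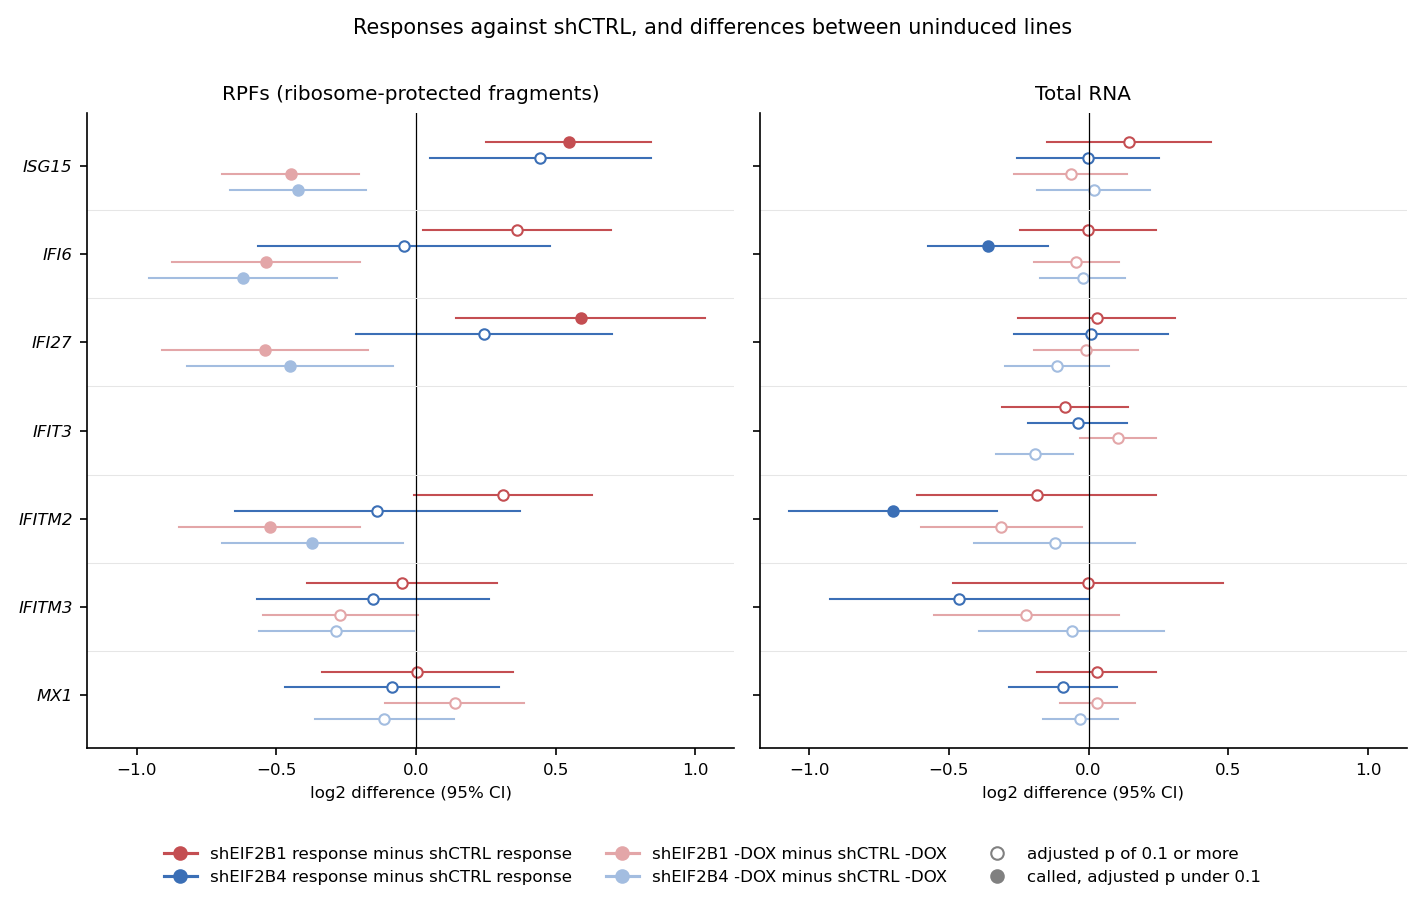
Log2 differences (x axis) with 95% CIs for each member: the response of each knockdown line minus the shCTRL response (dark points) and uninduced knockdown cells minus uninduced shCTRL (pale points), in RPFs (left) and total RNA (right). Filled points passed a limma adjusted p under 0.1. In RPFs the pale points of ISG15, IFI6, IFI27 and IFITM2 lie between -0.62 and -0.37, opposite the dark points of ISG15 and IFI27 for shEIF2B1 at 0.55 and 0.59.

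Across the 6 groups, the ranges of neighbouring levels nearly always overlapped. The week in which cells were grown took 64.5% of the variance of ISG15 in RPFs, 48.5% of IFI6, 41.8% of IFI27, 46.8% of IFITM2, 48.3% of IFITM3 and 25.7% of MX1, beside a median of 39.0% over all genes. The interaction of line and DOX took at most 9.66% in RPFs. Ranges of groups take no account of the pairing by week, and the share of overlaps over all genes was not counted. IFITM2 in RPFs, for instance, rose in 12 of 12 comparisons within weeks while its neighbouring groups overlapped. Neighbours in the order of group means overlapped in their ranges for every member in RPFs, total RNA and TE, with a single exception. That exception was IFI6 in total RNA, where shEIF2B4 +DOX (6.54 to 6.59) lay below all libraries of the next group, shEIF2B1 -DOX (6.63 to 6.88). IFIT3 was the member most set by line, which took 54.7% of its variance in total RNA against 0.0631% for DOX, with its lowest means in shEIF2B4, at 4.71 ± 0.086 and 4.70 ± 0.10 (SD, n = 4 each).

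Over the 24 total RNA libraries, after the mean of each week was removed, IFITM2 and IFITM3 had a Pearson r of 0.92 with each other, given as a description because the libraries share lines, weeks and, for these 2 genes, sequence. The gene most like IFITM3 was NUTF2, a nuclear transport factor (r = 0.94). FN1, the matrix protein fibronectin, was most like IFI6 (r = 0.88), SAA1, an acute-phase protein, most like IFI27 (r = 0.81), and the ribosomal protein gene RPL8 most like ISG15 (r = 0.85). CHURC1-FNTB was most like IFIT3 (r = 0.86) and GNAZ most like MX1 (r = 0.83). No member other than the IFITM pair had another member among its 3 closest genes.

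The rest of the interferon pathway was read from lists written from general knowledge, with earlier results of these data known. Their counts therefore describe these data and are no independent test. Counts over the 3 lines are to be read beside those of all genes, of which 24.5% rose and 27.9% fell in RPFs, and 27.7% rose and 27.9% fell in total RNA. Of 11 interferons and receptor subunits, the 6 receptor subunits were listed in both tables, and no interferon was. Over the 3 lines 3 of 6 rose in RPFs, namely IFNLR1 (0.24) and IL10RB (0.22), the subunits of the type III receptor, and IFNGR1 (0.17). In total RNA 2 of 6 rose. IFNAR1, a subunit of the type I receptor, rose by 0.49 in RPFs of induced shCTRL and fell by 0.30 in shEIF2B1, and the corrected response was -0.79 (limma adjusted p = 0.0036).

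Among sensors and adaptors, over the 3 lines 4 of 7 rose and 1 fell in RPFs, beside 24.5% and 27.9% of all genes, and 6 of 8 rose in total RNA, beside 27.7%. TLR3, the endosomal receptor for double-stranded RNA, rose by 0.60 in RPFs and 0.46 in total RNA (limma adjusted p = 7.62e-06 and 1.16e-05). The adaptor STING1 rose by 0.48 in RPFs. IFIH1, a cytoplasmic sensor of long double-stranded RNA, rose by 0.30, and DDX58, which senses RNA ends, rose by 0.25 in total RNA. EIF2AK2, the double-stranded RNA-activated kinase PKR, fell by 0.33 in RPFs over the 3 lines, with a rise of 0.15 in total RNA (limma adjusted p = 0.0776). In induced shCTRL, TLR3 and STING1 were called in RPFs, at 0.52 and 0.41, and EIF2AK2 was not, at 0.02.

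Among kinases, transcription factors and feedback inhibitors, 8 of 15 rose and 3 fell in RPFs over the 3 lines, and 9 of 16 rose and 3 fell in total RNA. IRF9, the DNA-binding subunit of the complex at the response element, rose by 0.64 in RPFs and 0.17 in total RNA. IRF7, which drives interferon genes, rose by 0.56 in RPFs and 0.13 in total RNA, JAK1 by 0.42 in both, and STAT2 by 0.41 and 0.25. In shCTRL alone 0 of 15 were called in RPFs, beside 583 genes higher and 515 lower of 11145. In total RNA 1 of 16 was called, beside 271 genes higher and 260 lower of 11947. Corrected for shCTRL, IRF7 responded by 0.92 to shEIF2B1 and 1.01 to shEIF2B4 in RPFs, and IRF9 by 0.66 and 0.79, all called.

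Other ISGs numbered 56, of which 34 were in the RPF table and 38 in the total RNA table. Over the 3 lines 15 of 34 rose and 3 fell in RPFs, with a median change of 0.11 beside -0.02 for all genes, and 22 of 38 rose and 3 fell in total RNA, with a median of 0.12 beside -0.01. LAMP3, a lysosomal membrane protein, stood apart with an RPF change of 2.64 (limma adjusted p = 3.99e-16). Its change in RPFs was 0.71 in shCTRL, 3.64 in shEIF2B1 and 3.55 in shEIF2B4. ISG20, an exonuclease, rose by 1.04 and UBE2L6, the conjugating enzyme of ISG15, by 0.68. IFITM1, the third gene of the cluster, rose in every line, by 0.79 in shCTRL, 1.20 in shEIF2B1 and 0.52 in shEIF2B4 in RPFs, and by 1.19, 1.29 and 0.82 in total RNA. The antiviral synthetases OAS1, OAS2 and OAS3, named after their values were seen, lay between -0.06 and 0.01 in RPFs and were not called.

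In shCTRL alone, 3 of 34 other ISGs rose in RPFs, beside 5.23% of all genes, and 3 of 38 in total RNA, beside 2.27%. In RPFs the 3 were LAMP3, IFITM1 and UBE2L6. No gene of this list fell in shCTRL in either table, where 515 of 11145 genes fell in RPFs and 260 of 11947 in total RNA. In total RNA these 3 were IFITM1, UBE2L6 and PML. The median over the list was 0.07 in each table, beside 0.01 for all genes of the RPF table.

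Antigen presentation on MHC class I, which interferons raise in most cells, moved most evenly. Over the 3 lines 13 of 14 genes rose in RPFs and 12 of 14 in total RNA, and none fell. HLA-B rose by 0.86 in RPFs and 0.91 in total RNA, HLA-F by 0.71 and 0.34, PSMB9, an immunoproteasome subunit, by 0.66 and 0.32, and HLA-C by 0.62 and 0.51. Reads can be split among the HLA genes, which are close copies of each other. In shCTRL alone 2 of 14 rose in RPFs, beside 5.23% of all genes, and 1 of 14 in total RNA, beside 2.27%. In shEIF2B1 all 14 rose in RPFs, with a median of 0.59, beside 22.7% of all genes, and in shEIF2B4 11 of 14, with a median of 0.48, beside 11.8%. Corrected for shCTRL, 10 of 14 were higher for shEIF2B1, beside 12% of all genes. For shEIF2B4 2 of 14 were higher, beside 210 of all 11145 genes.

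Antigen presentation genes also differed before induction. In RPFs 9 of 14 were lower in uninduced shEIF2B1 than in uninduced shCTRL and 10 of 14 in uninduced shEIF2B4, beside 17.1% and 26.8% of all genes. The medians were -0.32 and -0.33, beside 0.00 and -0.13 for all genes, and in total RNA none was called in either line. The 10 genes of small RNA processing, through which a hairpin passes, gave 0 calls in limma in RPFs or total RNA of shCTRL. Of all genes in shCTRL, 583 were higher and 515 lower of 11145 in RPFs, and 271 and 260 of 11947 in total RNA. In RPFs of shEIF2B1 1 of the 10 rose and 4 fell, beside 2531 genes higher and 2976 lower of 11145. In shEIF2B4 2 of the 10 fell, beside 1337 genes lower. Over the 3 lines AGO4 rose by 0.24 in RPFs and 0.42 in total RNA, DROSHA fell by 0.23 in both, DGCR8 fell by 0.27 in RPFs and AGO2 by 0.17.

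**Figure D5:**
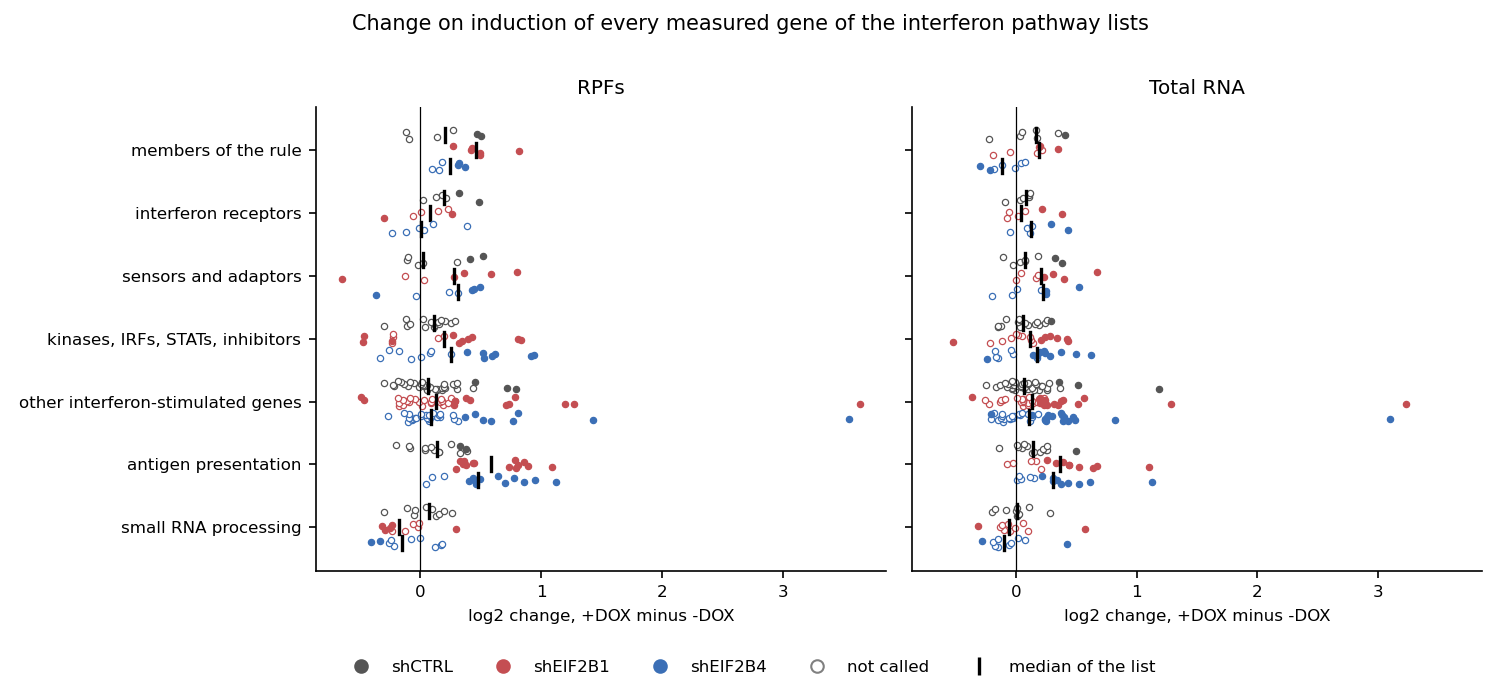
Log2 change on induction (x axis, +DOX minus -DOX) of every measured gene of the interferon pathway lists, in RPFs (left) and total RNA (right), by line. Each point is a gene, filled where the limma adjusted p was under 0.1, and black bars give the list's median. Antigen presentation in RPFs has medians of 0.59 in shEIF2B1 and 0.48 in shEIF2B4 against 0.13 in shCTRL, and LAMP3 is the point beyond 3 in both knockdown lines.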

How the data were processed

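RPF and total cytoplasmic RNA libraries of 3 shRNA lines, -DOX or +DOX, in 4 replicates, were grouped by the labels of the samples. The authors aligned total RNA to GENCODE v38 protein-coding transcripts with Bowtie2, quantified it with RSEM, aligned RPFs of selected sizes to the most expressed transcript of each gene (coding-sequence alignments were examined apart from others, and which of them the RPF table holds is not stated), and, per the submitters' processing notes, used cutadapt 1.18, SAMtools 1.9, R 4.3.1 and DESeq2. Replicate 3 was sequenced in 2 runs of the same preparation, which were joined. The deposited values are on a log2 scale: the authors name DESeq2's regularized log for their plotted values, and RPFs and total RNA are in separate tables. That transformation shrinks changes of genes with few reads, MX1 and IFIT3 among them, towards 0. Depth is unknown, which leaves out counting errors and count models.

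Differences were fitted here in R 4.3.3 with limma 3.58.1 (eBayes with a mean-variance trend), with the replicate as a block, on the libraries of the lines compared. The mean change, the contrast of the knockdowns and the uninduced comparisons used all 24. Tests are two-sided, with Benjamini-Hochberg adjustment over all genes of a table, and genes were called at an adjusted p under 0.1. The labels place replicates in separate weeks. After group means were removed, libraries of one week correlated over 0.1 across genes in 52 of 60 pairs for RPFs and in 37 of 60 pairs for total RNA. P-values cover the spread between these 4 weeks of one set of pools.

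The 9 members and the lists were chosen with earlier results of these data known. Named by rule were the members, the targets, the 3 genes most like each member, and in each list up to 4 genes with the largest change among those called over the 3 lines or in a corrected response. DDX58, PML and the OAS genes were named after their values were seen. Positions come from GENCODE v29 and promoters from RefSeq, matched by symbol. The fits were checked on simulated data. The changes planted there were larger than any called change of a member, so changes of the members' size were not covered. Alternatives were no block, no trend, no low genes, median centring, one fit of 24 libraries, a threshold of 0.05, each replicate left out and, added after seeing the data, 1 RPF library left out.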

Additional observations from a re-analysis of the deposited data

Results flagged for a closer look

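Of 114 groups of 4 libraries (member, measure, line and treatment), 7 had a library whose gap to its nearest neighbour took a larger share of the group's range than Dixon's 95% critical value. Chance gives about 1 in 20. In RPFs, ISG15 read 9.1988 in shEIF2B4 -DOX replicate 1, beside 8.20 to 8.33 in the other replicates. The TE of IFITM2 in that lysate was 4.1272, beside 2.43 to 2.70, and that of IFITM3 was 1.8796, beside 0.77 to 0.83. In total RNA, shCTRL -DOX replicate 3 stood high for IFITM2, at 10.6753 beside 9.85 to 9.98, and for IFITM3, at 11.7612 beside 10.69 to 10.74. IFIT3 read 4.8335 in shEIF2B4 -DOX replicate 3, beside 4.65 to 4.68, and 4.5476 in shEIF2B4 +DOX replicate 1, beside 4.73 to 4.76.

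The response on induction differed between a knockdown line and shCTRL, by the interaction of line and DOX in limma, for 4 members. In RPFs the response to shEIF2B1 exceeded that of shCTRL by 0.546 for ISG15 and 0.5888 for IFI27. In total RNA the response to shEIF2B4 was below that of shCTRL for IFI6 (-0.3588) and IFITM2 (-0.6993). Over their alternatives the limma adjusted p ranged from 0.00848 to 0.622 for ISG15, 0.0155 to 0.622 for IFI27, 0.0371 to 0.295 for IFI6 and 0.0128 to 0.285 for IFITM2. The cause was not tested.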

How the results depend on the processing

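Of 49 called changes of single members, none changed sign in any alternative. Called in all of them were 6, namely IFITM2, IFITM3 and MX1 in RPFs and IFI27 and MX1 in total RNA over the 3 lines, and IFITM2 in RPFs of shEIF2B1. Of 122 changes not called, 95 stayed so in all. Leaving out the replicate block moved most: 39 of 49 calls were lost. The counts of members given below are not set beside counts of all genes under the same alternative. Whether a loss of calls is particular to the members therefore cannot be read from them. Weeks took a large share of the RPF variance, and 4 weeks of values with no counts limit what can be called for MX1 and IFIT3, which are low in the tables and drop out when the lowest 25% of genes are left out.

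Members called without the replicate block, in RPFs, numbered 0 instead of 2 for shCTRL, 1 instead of 6 for shEIF2B1, 0 instead of 3 for shEIF2B4, 3 instead of 5 over the 3 lines, 0 instead of 2 for the corrected response to shEIF2B1 and 0 instead of 4 for each uninduced comparison. In total RNA they numbered 0 instead of 1 for shCTRL and 0 instead of 2 for the corrected response to shEIF2B4. In TE they were 0 for shEIF2B1, shEIF2B4, the 3 lines and both uninduced comparisons. One fit of all 24 libraries gave, in RPFs, 1 for shEIF2B4 and 1 for the corrected response to shEIF2B1, in total RNA 0 for shCTRL and 4 for shEIF2B1, and in TE 1 for shEIF2B4. A threshold of 0.05 gave, in RPFs, 0 for shEIF2B4, 1 for the corrected response to shEIF2B1 and 2 for uninduced shEIF2B4, in total RNA 0 for shCTRL, 1 for shEIF2B1, 1 for shEIF2B4 and 1 for the corrected response to shEIF2B4, and in TE 1 for shEIF2B4. Also lost at 0.05 were MX1 in RPFs and IFI6 in TE for shEIF2B1, IFITM3 in total RNA over the 3 lines, and in uninduced TE ISG15 for shEIF2B1 and IFI27 for shEIF2B4. Median centring gave 2 for uninduced shEIF2B4 in RPFs and 1 for the corrected response to shEIF2B1 in TE, and lost IFI27 in uninduced TE for shEIF2B4. For shEIF2B1 in total RNA, 1 was called without a mean-variance trend and 1 without the lowest 25% of genes.

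With 1 replicate, or shEIF2B4 -DOX replicate 1 alone, left out, the members called in RPFs ranged from 0 to 3 for shCTRL, from 5 to 6 for shEIF2B1, from 0 to 4 for shEIF2B4, from 3 to 6 over the 3 lines, from 0 to 3 and from 0 to 2 for the corrected responses to shEIF2B1 and shEIF2B4, and from 0 to 5 for each uninduced comparison. In total RNA they ranged from 0 to 3 for shCTRL, from 0 to 3 for shEIF2B1, from 0 to 2 for shEIF2B4, from 2 to 3 over the 3 lines and from 0 to 2 for the corrected response to shEIF2B4. In TE they ranged from 2 to 4 for shEIF2B1, from 0 to 4 for shEIF2B4, from 2 to 4 over the 3 lines, from 0 to 3 and from 0 to 2 for the corrected responses, and from 0 to 3 and from 0 to 5 for uninduced shEIF2B1 and shEIF2B4. All other counts stayed at 0. The cause was not tested.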
